A study of Mus musculus with 4 samples.

Results

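The 10 genes described here are regulators and targets of the tumour suppressor p53 together with the cell cycle inhibitors that mark cellular senescence. They were Trp53, Mdm2, Cdkn1a, Ccng1, Bax, Trp53inp1, Sesn1, Cdkn2a, Cdkn2b and Cdkn1b. The rule took them by name, but the list was chosen with earlier results of these data known. The array named 18 probes for them among 41174 probes in all, and 16 of the 18 were tested among 27724 probes. At the level of genes they were 10 of 14993 genes tested. Each of 4 Agilent 2-color arrays, which carry 60-mer probes, received RNA of STMN1-/- and of STMN1+/+ mouse embryo fibroblasts (MEFs). STMN1-/- MEFs lack stathmin, a protein that destabilises microtubules. Both genotypes were cultured, untreated C57BL/6 fibroblasts isolated from individual midgestation embryos of matings between heterozygous mice, and the mutant allele carries a neomycin cassette. Arrays 1 and 2 carried the STMN1-/- RNA in Cy3, and arrays 3 and 4 carried it in Cy5. Which embryo, culture or RNA extract each array held was not given, and the p-values therefore cover only the variation among arrays, some or all of which may be technical.

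The p53 protein is a transcription factor that is stabilised by DNA damage and other stress and turns on genes for cell cycle arrest, DNA repair and apoptosis. MDM2 is the ubiquitin ligase that degrades p53 and is itself a p53 target, which closes a feedback loop. Cultured mouse fibroblasts enter senescence through the Cdkn2a locus, which encodes both the p16INK4a inhibitor of CDK4 and CDK6 and the p19ARF inhibitor of MDM2, with the p15INK4b inhibitor encoded beside it by Cdkn2b.

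All 4 arrays were read on 1 slide and 1 scan day, with 43379 non-control spots each, 472 to 711 of them outliers, and no saturated spot. Log2 ratios correlated across probes, which are not independent replicates, at 0.689 and 0.703 for pairs that shared a dye orientation and at 0.445 to 0.489 for pairs that did not (Pearson's r). Signals are background-subtracted, dye-normalised intensities in arbitrary units, and no probe's signal can be set against that of another probe. Stmn1 itself was down-regulated at both its probes, with log2 ratios of -0.39 ± 0.07 and -2.16 ± 0.06 (limma SE, n = 4 arrays). It was lower in STMN1-/- MEFs on 4 of 4 arrays. The call at the brighter probe (-0.39) held in 1 of 4 omissions of an array. The paper calls the array's Stmn1 probe flawed, since it also matches a region of another chromosome, and does not name the probe. It states that qRT-PCR and western blotting found no Stmn1 mRNA or protein in STMN1-/- MEFs. The signal left at these probes therefore cannot be read as remaining Stmn1 mRNA.

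Of the 10 genes, 3 were up-regulated in STMN1-/- MEFs (Cdkn2a, Cdkn2b and Trp53inp1), 2 were down-regulated (Mdm2 and Ccng1), and 5 did not pass the test (Trp53, Cdkn1a, Bax, Sesn1 and Cdkn1b). The test was limma's moderated test of the log2 ratio of STMN1-/- over STMN1+/+ against 0, two-sided, with Benjamini-Hochberg adjustment over all probes tested and a threshold of 0.05. A gene with several probes is counted by its probe of highest mean signal. Of all genes tested, 13.4% were up-regulated, 12.3% were down-regulated and 25.6% passed in either direction. Of the 16 probes tested for the 10 genes, 3 were up-regulated and 3 were down-regulated, where 11.2% and 11.1% of all probes tested were, and 22.3% in either direction. The median log2 ratio was -0.05 over the 10 genes and 0.01 over all genes tested, and the median absolute log2 ratio was 0.24 over the 10 genes and 0.17 over all genes tested.

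The probes are shown for the 5 genes that passed and for Trp53, since the probe sequence fixes which transcripts each value can stand for. Each is given from 5′ to 3′ in the sense of the array's design, as the array file holds it. A probe is printed in full where at least 1 reading frame is open through all 60 bases and the stretch is taken to be coding, and otherwise only its first 30 bases are shown. Capitals mark a repeated unit.
Cdkn2a A_51_P144813, first 30 bases: cacttctagcgatgctagcgtgtctagcat
Cdkn2b A_52_P498241, first 30 bases: catgtgtggggattcacctgcaaaatggca
Trp53inp1 A_51_P175580, first 30 bases: gtgtgtttatgggcacaatgttttctctca
Trp53inp1 A_52_P503387, first 30 bases: AGTACTAATACTTACCACAGCAGGCGagta
Mdm2 A_52_P469842, first 30 bases: cattcagaaagactgaatcagaacatggat
Mdm2 A_51_P201346: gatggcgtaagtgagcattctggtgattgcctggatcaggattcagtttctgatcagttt
Ccng1 A_51_P161612: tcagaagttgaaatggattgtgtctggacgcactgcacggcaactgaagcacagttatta
Trp53 A_52_P781398, first 30 bases: gcattcaggccctcatcctcctccttccca
Trp53 A_52_P491849: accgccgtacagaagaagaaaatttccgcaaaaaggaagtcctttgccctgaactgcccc
In the coordinates of mouse build mm7 that the array files carry, the Cdkn2a probe lies at chr4:88678367-88678426 on the minus strand. The Trp53inp1 probes lie on the plus strand at chr4:11101174-11101233 (A_51_P175580) and chr4:11098180-11098239 (A_52_P503387). The Mdm2 probes lie on the minus strand at chr10:117200593-117200652 (A_52_P469842) and chr10:117204040-117204099 (A_51_P201346), and the Ccng1 probe A_51_P161612 on the minus strand at chr11:40693768-40693827. The Trp53 probes lie on the plus strand at chr11:69662031-69662089 (A_52_P781398) and chr11:69671206-69671265 (A_52_P491849). The array files give the Cdkn2b probe no position, and exon and UTR annotation of this build was not used here. The Cdkn2a probe lists the accessions of both the p19ARF and the p16INK4a transcript, so that the products of the locus cannot be told apart by it. The Trp53inp1 probe A_52_P503387 repeats a 26-base unit, with 33 of 34 bases equal to those 26 positions before, and no other member probe held such a repeat.

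Promoter windows of 9 of the 10 genes were taken from RefSeq (build GRCm38.p6), each with 250 bases before and 50 bases after a transcription start, and Trp53inp1 had none in the table. The 10-base p53 consensus half-site, which reads the same on both strands, was present in 6 of 12 windows (those of Trp53, Mdm2, Ccng1 and Bax, and 1 of the 2 windows of each of Cdkn1a and Sesn1) and in 8.36% of all 32851 windows of the same length. Both Cdkn2a windows, those of Cdkn2b and Cdkn1b, and the other windows of Cdkn1a and Sesn1 had no match. The matching Cdkn1a window was the only one of the 12 with half-sites 0 to 13 bases apart, as had 24 of the 32851 windows (0.0731%). A match is a match of letters and is no evidence of binding. The 250 bases upstream of the start are shown for Cdkn1a, the classical p53 target, and for Mdm2 and Ccng1, the targets that were down-regulated, with the half-sites in capitals.
Cdkn1a, chr17:29090729-29090978, plus strand: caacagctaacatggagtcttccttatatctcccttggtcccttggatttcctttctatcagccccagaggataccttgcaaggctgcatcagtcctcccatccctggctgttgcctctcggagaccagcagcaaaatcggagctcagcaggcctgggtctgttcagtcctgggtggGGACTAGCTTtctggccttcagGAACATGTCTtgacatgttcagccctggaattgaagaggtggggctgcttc
Mdm2, chr10:117710759-117711008, minus strand: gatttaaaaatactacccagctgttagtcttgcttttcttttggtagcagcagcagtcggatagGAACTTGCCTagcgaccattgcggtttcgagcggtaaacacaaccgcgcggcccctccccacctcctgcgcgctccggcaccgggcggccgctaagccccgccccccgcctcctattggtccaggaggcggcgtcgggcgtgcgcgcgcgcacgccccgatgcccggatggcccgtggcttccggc
Ccng1, chr11:40755287-40755536, minus strand: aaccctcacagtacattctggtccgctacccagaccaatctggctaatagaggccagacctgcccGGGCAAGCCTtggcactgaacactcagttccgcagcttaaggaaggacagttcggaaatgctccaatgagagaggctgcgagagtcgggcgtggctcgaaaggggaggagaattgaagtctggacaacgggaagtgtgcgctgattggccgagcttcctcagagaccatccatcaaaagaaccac

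The senescence locus was up-regulated at both its genes. Cdkn2a, the gene of p16INK4a and p19ARF, had signals of 1535, 1711, 1427 and 1655 in STMN1-/- MEFs on arrays 1 to 4, against 962, 1103, 902 and 1069 in STMN1+/+ MEFs. Every STMN1-/- signal lay above every STMN1+/+ signal, as it did for 14.2% of all genes. The log2 ratios of 0.67, 0.63, 0.66 and 0.63 gave a mean of 0.65 ± 0.05 (limma SE, n = 4 arrays), which is 1.57 fold (adjusted p = 0.00231). The probe was spotted 10 times on each array, and the log2 ratios of its spots had an SD of 0.09 to 0.14 within an array. With normexp background correction and loess the log2 ratio was 0.34 and the call was lost (adjusted p = 0.0567).

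Cdkn2b, the gene of p15INK4b, had signals of 60409, 68670 and 58912 in STMN1-/- MEFs on arrays 1, 2 and 3, against 39687, 47107 and 37675 in STMN1+/+ MEFs. All STMN1-/- signals lay above all STMN1+/+ signals on these 3 arrays, as they did for 14.2% of all genes on the arrays each had. Such a separation is easier to reach with fewer arrays. Array 4 had no usable spot of this probe, and with its outlier spot kept the log2 ratio there was 0.51. The fit over the other arrays gave a log2 ratio of 0.60 ± 0.07 (limma SE, n = 3 arrays), which is 1.51 fold (adjusted p = 0.0106). With 1 array fewer the call was lost, at a log2 ratio of 0.59 without array 1, 0.63 without array 2 and 0.57 without array 3 (adjusted p = 0.0565, 0.0553 and 0.0614), where the fit rests on 2 arrays. With outlier spots kept on all 4 arrays it was 0.58 (adjusted p = 0.00386).

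The gene next to Cdkn2a on its other side in RefSeq, Mtap, which encodes a methionine salvage enzyme and was looked up after the values of the locus had been seen, was down-regulated. Its log2 ratio was -0.40 ± 0.06 (limma SE, n = 4 arrays, adjusted p = 0.00995) and was below 0 on 4 of 4 arrays. All 3 members on chromosome 4 were up-regulated, where 13.4% of all genes tested on any chromosome were, and Cdkn2a and Cdkn2b are neighbours there. The share among genes of chromosome 4 alone was not taken. Ccne2, the gene next to Trp53inp1 in RefSeq, was down-regulated (log2 ratio -0.76), a call that held in 4 of 4 omissions of an array. Stmn1 lies on the same chromosome, with its brighter probe at chr4:133852044-133852103 in mm7. Of the relatives described below, Sesn2 on this chromosome was up-regulated (log2 ratio 0.35, brighter probe at chr4:131870492-131870551). Cdkn2c (0.07) and Trp73 (-0.02), also on it, did not pass. The Cdkn2a probe lies 45.2 Mb and the nearer Trp53inp1 probe 122.7 Mb from Stmn1 in mm7. Whether this position bears on their values was not tested.

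Trp53inp1, a p53 target whose product promotes apoptosis and autophagy, had signals of 40600, 42617, 45208 and 45620 in STMN1-/- MEFs at probe A_51_P175580, against 33888, 33528, 34231 and 36851 in STMN1+/+ MEFs. All STMN1-/- signals lay above all STMN1+/+ signals, as they did for 14.2% of all genes. The log2 ratio was 0.33 ± 0.06 (limma SE, n = 4 arrays), which is 1.26 fold (adjusted p = 0.0165). The call was lost without array 1 (0.35, adjusted p = 0.0523), array 2 (0.32, 0.0742), array 3 (0.30, 0.0738) or array 4 (0.34, 0.0679), and with the median over both probes (0.28, 0.0556). The other probe, A_52_P503387, whose sequence is the tandem repeat shown above, had signals of 10951, 10906, 13296 and 12845 in STMN1-/- MEFs, against 10870, 11657, 9124 and 9200 in STMN1+/+ MEFs. Its log2 ratio was 0.01 and -0.10 on arrays 1 and 2, with STMN1-/- RNA in Cy3, and 0.54 and 0.48 on arrays 3 and 4, with STMN1-/- RNA in Cy5. The mean of 0.23 ± 0.13 did not pass (limma SE, n = 4 arrays, adjusted p = 0.272), and with a second coefficient for the dye the same mean passed (adjusted p = 0.0209).

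Mdm2 was down-regulated at both its probes. At the probe measured on every array, A_51_P201346, the signals were 4448, 4542, 4312 and 4613 in STMN1-/- MEFs, against 5995, 6280, 6367 and 6599 in STMN1+/+ MEFs. The groups were apart on every array, and all STMN1-/- signals lay below all STMN1+/+ signals, as they did for 13.3% of all genes. The log2 ratios were -0.43, -0.47, -0.56 and -0.52, with a mean of -0.49 ± 0.06 (limma SE, n = 4 arrays, adjusted p = 0.00572), which is 1.41 fold lower. This call held in each of the 15 alternative fits, with adjusted p of at most 0.0358. At the brighter probe, A_52_P469842, only arrays 1 and 3 had a usable spot, with signals of 23863 and 30756 in STMN1-/- MEFs, against 38620 and 48535 in STMN1+/+ MEFs. Its log2 ratio was -0.68 ± 0.09 (limma SE, n = 2 arrays), which is 1.60 fold lower (adjusted p = 0.0292). The call at this probe was lost without array 1 (-0.66, adjusted p = 0.151) and without array 3 (-0.69, 0.149), where a single array was left and is assumed to vary like the other probes. It was also lost with no filter on dim probes (adjusted p = 0.0759), under the methods' t-test (0.081) and with arrays 1 and 3 and arrays 2 and 4 averaged (0.0547). With outlier spots kept the log2 ratios were -0.69, -0.46, -0.66 and -0.72 on arrays 1 to 4 (adjusted p = 0.0051).

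Ccng1, which encodes cyclin G1, a p53 target that acts on MDM2 through a phosphatase, had signals of 37178, 38647 and 38099 in STMN1-/- MEFs on arrays 1, 3 and 4 at probe A_51_P161612, against 65179, 50945 and 53005 in STMN1+/+ MEFs. All STMN1-/- signals lay below all STMN1+/+ signals on these 3 arrays, as they did for 13.3% of all genes on the arrays each had. The STMN1+/+ signal of array 1 was the highest. The log2 ratios were -0.81 on array 1, -0.40 on array 3 and -0.48 on array 4, with a mean of -0.56 ± 0.11 (limma SE, n = 3 arrays), which is 1.48 fold lower (adjusted p = 0.0349). The call was lost without array 1 (-0.44, adjusted p = 0.0892), array 2 (-0.56, 0.0553), array 3 (-0.64, 0.0826) or array 4 (-0.60, 0.109). It was also lost with no filter on dim probes (adjusted p = 0.0752) and under the methods' t-test with Benjamini-Hochberg adjustment (0.147). The second Ccng1 probe, A_52_P612803 at chr11:40691782-40691841 (mm7, minus strand), was well above background on every array but all its spots were marked as outliers, so that it was not tested. With those spots kept its signals were 77592, 76698, 69826 and 86749 in STMN1-/- MEFs, against 98476, 94549, 97921 and 109032 in STMN1+/+ MEFs, and the log2 ratios of -0.34, -0.30, -0.49 and -0.33 passed (adjusted p = 0.0149). The groups did not overlap at this probe either.

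**Figure D1:**
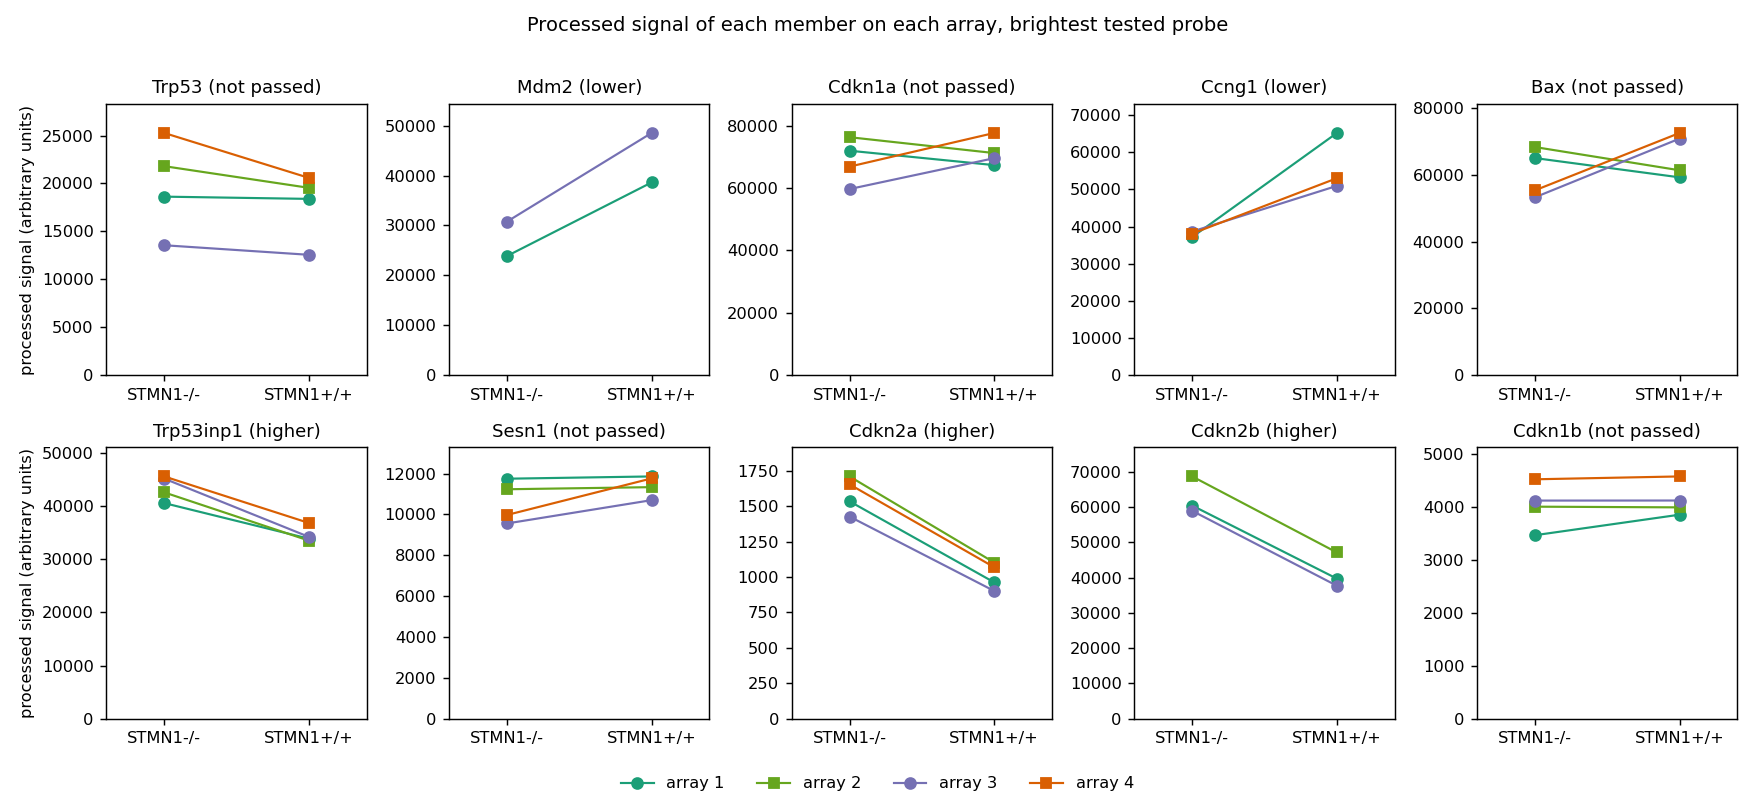
Processed signal in arbitrary units (vertical axis, from 0) of the brightest tested probe of each of the 10 genes in STMN1-/- MEFs (left) and STMN1+/+ MEFs (right), with a line for each array. All lines fall to the right for Cdkn2a, Cdkn2b and Trp53inp1 and climb to the right for Mdm2 and Ccng1, while the lines of Cdkn1a and Bax cross by dye orientation.

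Trp53, the gene of p53, did not pass at either probe, and its probes had opposite signs. At A_52_P781398 the signals were 18622, 21801, 13552 and 25264 in STMN1-/- MEFs, against 18387, 19541, 12554 and 20579 in STMN1+/+ MEFs, a log2 ratio of 0.15 ± 0.07 (limma SE, n = 4 arrays, adjusted p = 0.191). At A_52_P491849 they were 4488, 4799, 4430 and 5304 in STMN1-/- MEFs, against 4691, 5061, 4717 and 5728 in STMN1+/+ MEFs, a log2 ratio of -0.09 ± 0.05 (limma SE, n = 4 arrays, adjusted p = 0.297). The signals of the genotypes overlapped at both probes, although each array pointed the same way, with 4 of 4 ratios above 0 at the first and 4 of 4 below 0 at the second. The first probe exceeded the second by 0.08 to 0.41 on the log2 scale on every array, with a mean difference of 0.23 (exact sign-flip test, two-sided p = 0.125, the smallest that 4 arrays allow). The second probe passed the methods' t-test (adjusted p = 0.0355), with an SD of 0.02 between arrays.

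Cdkn1a, which encodes the CDK inhibitor p21, was bright in both genotypes and did not pass. Its signals were 71937, 76266, 59646 and 66838 in STMN1-/- MEFs, against 67317, 71183, 69542 and 77621 in STMN1+/+ MEFs. STMN1-/- was the higher on arrays 1 and 2 and the lower on arrays 3 and 4, so that the log2 ratio averaged 0.10 with STMN1-/- RNA in Cy3 and -0.22 with STMN1-/- RNA in Cy5. The mean over all arrays was -0.06 ± 0.09 (limma SE, n = 4 arrays, adjusted p = 0.662). The 10 spots of the probe varied by an SD of 0.04 to 0.07 within an array, less than the difference of -0.32 between the dye orientations.

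Bax, which encodes the pore-forming effector of mitochondrial apoptosis, followed the same split. Its signals were 65042, 68343, 53265 and 55357 in STMN1-/- MEFs, against 59262, 61378, 70864 and 72555 in STMN1+/+ MEFs. The log2 ratios were 0.13 and 0.16 on arrays 1 and 2 and -0.41 and -0.39 on arrays 3 and 4, with a mean of -0.13 ± 0.13 (limma SE, n = 4 arrays, adjusted p = 0.532). The probe has coordinates that span 156 bases of mm7 (chr7:41641827-41641982, minus strand), more than its 60 bases, as a probe across a splice junction does. In a fit with the dye as a second coefficient, the dye effect had an adjusted p of 0.0598 for Bax, 0.0843 for Cdkn1a and 0.063 for the Trp53inp1 probe A_52_P503387. Over all 27567 probes for which it could be fitted, 0 passed for the dye effect in limma at the adjusted threshold and 8536 at an unadjusted p under 0.05. Of the 16 member probes, the Trp53inp1 probe A_52_P503387 was the only one whose call that fit changed.

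Sesn1, a p53 target that restrains mTORC1 and counters oxidative stress, did not pass at any of its 3 probes. At A_51_P233954 the signals were 11750, 11233, 9557 and 9973 in STMN1-/- MEFs, against 11861, 11337, 10700 and 11764 in STMN1+/+ MEFs, with a log2 ratio of -0.11 ± 0.07 (limma SE, n = 4 arrays, adjusted p = 0.31). The other probes had signals of 829 to 1003 (A_52_P53596) and 198 to 251 (A_51_P266644) in STMN1-/- MEFs, against 880 to 1086 and 211 to 271 in STMN1+/+ MEFs, and log2 ratios of 0.01 ± 0.08 and -0.09 ± 0.13. Their adjusted p-values were 0.963 and 0.651, and the genotypes overlapped at all 3 probes. Each of the 3 had its higher log2 ratios on arrays 1 and 2.

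Cdkn1b, which encodes the CDK inhibitor p27, is regulated largely at the level of its protein and is not a canonical p53 target. At A_51_P146126 its signals were 3469, 4010, 4125 and 4527 in STMN1-/- MEFs, against 3858, 3996, 4126 and 4582 in STMN1+/+ MEFs, a log2 ratio of -0.04 ± 0.06 (limma SE, n = 4 arrays, adjusted p = 0.658). At A_51_P169173 they were 492, 525, 521 and 539 in STMN1-/- MEFs, against 442, 484, 451 and 508 in STMN1+/+ MEFs, a log2 ratio of 0.14 ± 0.05 (limma SE, n = 4 arrays, adjusted p = 0.134). The second probe was above 0 on 4 of 4 arrays and above the first on every array, and neither passed. Another probe, A_52_P673863, did not rise well above background in either channel of any array, with signals of 54.1 to 81.7 in STMN1-/- MEFs and 32.0 to 91.3 in STMN1+/+ MEFs, and was not tested.

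**Figure D2:**
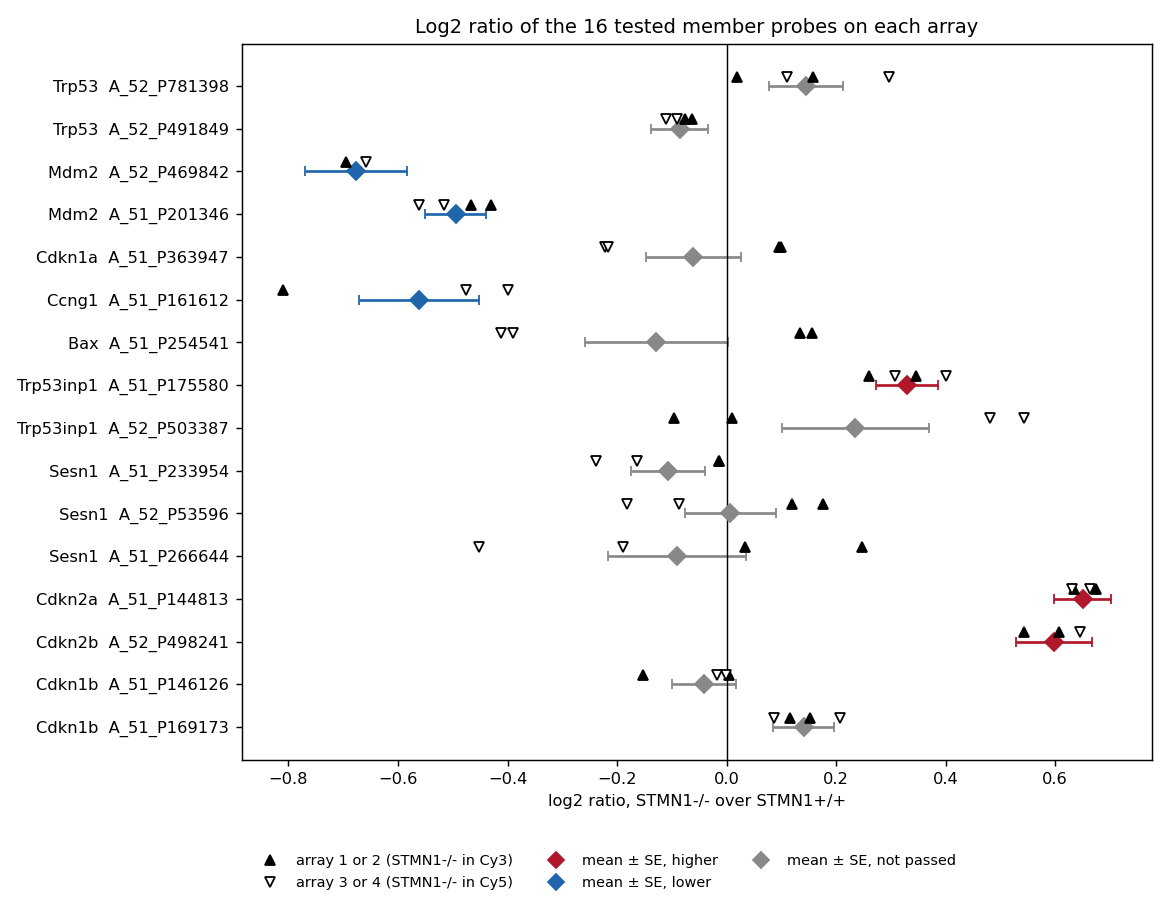
Log2 ratio of STMN1-/- over STMN1+/+ (horizontal axis) of the 16 tested probes, with a triangle for each array by dye orientation and a diamond with limma's SE for the mean. The triangles of Cdkn2a lie between 0.63 and 0.67, while those of Bax lie at 0.13 and 0.16 on arrays 1 and 2 and at -0.41 and -0.39 on arrays 3 and 4.

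The nearest relatives of the 10 genes were read in the same fit. Mdm4, which binds and inhibits p53 beside MDM2, had a log2 ratio of 0.26 ± 0.07 (limma SE, n = 4 arrays, adjusted p = 0.0576) and was above 0 on 4 of 4 arrays at its brightest probe. None of its 5 probes passed, and their log2 ratios ran between -0.05 and 0.28. The p53 relative Trp73 had -0.02 ± 0.06 (adjusted p = 0.837), and Trp63 had 0.32 ± 0.15 (adjusted p = 0.179) at signals that were well above background on 1 array in each genotype. Ccng2, which encodes cyclin G2 and is known as a FOXO target, had 0.17 ± 0.15 (adjusted p = 0.47), with -0.18 and -0.13 on arrays 1 and 2 and 0.48 and 0.52 on arrays 3 and 4.

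Both other sestrins were up-regulated where Sesn1 did not pass. Sesn2 had log2 ratios of 0.35 ± 0.06 at each of its probes (limma SE, n = 4 arrays, adjusted p = 0.0184 and 0.0151), and the call at the brighter one held in 1 of 4 omissions of an array. Sesn3, a target of FOXO factors, had 0.66 ± 0.11 at its brightest probe (adjusted p = 0.0157), a call that held in 3 of 4 omissions of an array. Its other probes had 0.33 ± 0.08, which passed (adjusted p = 0.0464), and 0.17 ± 0.07, which did not (adjusted p = 0.138). All 3 probes were above 0 on 4 of 4 arrays. Trp53inp2, the autophagy-related paralogue of Trp53inp1, had 0.64 ± 0.06 (adjusted p = 0.00321). Differences between these relatives and the members were not tested.

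Among the cell cycle inhibitors, Cdkn1c, the imprinted gene of p57, was up-regulated by 0.58 ± 0.07 (limma SE, n = 4 arrays, adjusted p = 0.00654) and was above 0 on 4 of 4 arrays. The other INK4 genes did not pass, with 0.07 ± 0.07 for Cdkn2c (adjusted p = 0.518) and -0.06 ± 0.07 for Cdkn2d (adjusted p = 0.578). Downstream, Ccnd1, the cyclin D1 partner of the kinases that INK4 proteins inhibit, was down-regulated by 0.62 ± 0.05 (log2 ratio -0.62, adjusted p = 0.00251). Cdk4 (-0.03 ± 0.09, adjusted p = 0.849) and Rb1 (-0.12 ± 0.06, adjusted p = 0.215) did not pass. Cdk6 had -0.30 ± 0.11 at its brightest probe (n = 3 arrays, adjusted p = 0.136) and passed at its dimmer probes, with -0.64 ± 0.07 and -0.59 ± 0.06 (adjusted p = 0.00475 and 0.00432). Of the relatives of Bax, the pro-survival genes Bcl2 (-0.27 ± 0.07, adjusted p = 0.0498) and Bcl2l1 (-0.51 ± 0.11, adjusted p = 0.032) were down-regulated at their brightest probes, and the effector Bak1 did not pass (-0.10 ± 0.05, adjusted p = 0.226). The other Bcl2 probes did not pass (-0.15 ± 0.06 and -0.23 ± 0.08, adjusted p = 0.142 and 0.097), while all 3 Bcl2l1 probes did, and with any 1 array left out the brightest probe of neither gene passed. Bmi1, the Polycomb repressor of the Cdkn2a locus, did not pass (0.14 ± 0.09, adjusted p = 0.31).

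**Figure D3:**
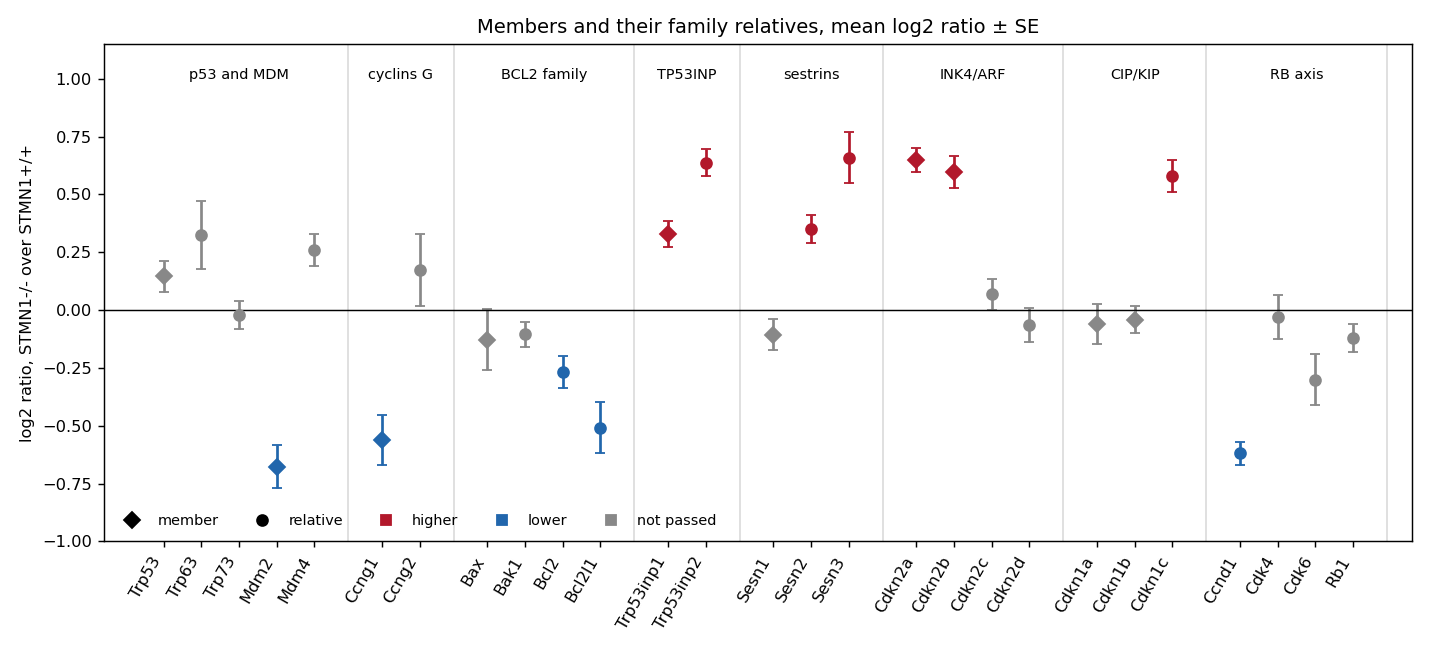
Mean log2 ratio of STMN1-/- over STMN1+/+ ± limma's SE (vertical axis) of the 10 genes (diamonds) and of their relatives (circles), each by its brightest tested probe and grouped by family. Cdkn2a and Cdkn2b stand at 0.65 and 0.60 beside Cdkn2c at 0.07 and Cdkn2d at -0.06.

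Other genes listed as p53 targets were called in both directions. Of 59 measured genes other than the members, taken from 3 lists, 12 were up-regulated, 10 were down-regulated and 37 did not pass (median log2 ratio -0.11, against 0.01 over all genes). The lists hold relatives already described, among them Trp53inp2, named above as a paralogue, and Sesn3, named above as a FOXO target. Over all genes, 13.4% were up-regulated and 12.3% were down-regulated. With 1 array left out the numbers were 6 to 8 and 4 to 6, and 6 up-regulated genes (Ddb2, Ddit4, Gadd45a, Prdm1, Trp53i13 and Trp53inp2) and 4 down-regulated genes (Epha2, Ier3, Perp and Tnfrsf10b) passed under every such omission. Among those of cell cycle arrest and growth, Prdm1 (0.97 ± 0.10), the DNA damage response gene Gadd45a (0.65 ± 0.06) and Trp53i11 (0.41 ± 0.07) were up-regulated, and the receptor tyrosine kinase gene Epha2 (-1.34 ± 0.07), Ier3 (-0.72 ± 0.06) and the G2-phase gene Gtse1 (-0.44 ± 0.07) were down-regulated. Among those of apoptosis, Trp53i13 (0.54 ± 0.06), the mTORC1 inhibitor gene Ddit4 (0.45 ± 0.05) and the TNF receptor gene Tnfrsf1a (0.40 ± 0.08) were up-regulated, and Perp (-0.87 ± 0.07), Tnfrsf10b (-0.47 ± 0.07) and Ei24 (-0.43 ± 0.09) were down-regulated. Bbc3, which encodes the BH3-only protein PUMA and was not among the 3 highest, was up-regulated by 0.25 ± 0.06. Its call was lost with any 1 array left out. Among those of repair and metabolism, the DNA damage recognition gene Ddb2 was up-regulated by 0.55 ± 0.07, and Gpx1 (-0.24 ± 0.05) and Polk (-0.24 ± 0.06) were down-regulated. Each of these turned the same way on 4 of 4 arrays, which was the condition for naming genes from the lists and is no separate result.

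Of 23 measured p53 regulators, 0 were up-regulated and 3 were down-regulated by limma (median -0.02, and 1 to 2 down-regulated with 1 array left out), while 2 were above 0 at an unadjusted p under 0.05 and 0 were up-regulated by the methods' t-test. The down-regulated genes were Rpl11 (-1.25 ± 0.18), a ribosomal protein that binds MDM2, the checkpoint kinase gene Chek1 (-0.42 ± 0.10) and Npm1 (-0.39 ± 0.07), whose product binds p19ARF. Of 25 genes that act on the INK4/ARF locus, 2 were up-regulated and 6 were down-regulated (median 0.01), or 1 to 2 and 2 to 4 with 1 array left out. The up-regulated genes were Ets2 (0.46 ± 0.06) and Kdm6b (0.44 ± 0.07), a demethylase of the Polycomb mark, and the 3 largest decreases were those of Id2 (-1.02 ± 0.06), Id1 (-0.87 ± 0.10, n = 3 arrays) and the Polycomb methyltransferase gene Ezh2 (-0.43 ± 0.05). Of 26 genes of the RB pathway, 1 was up-regulated and 6 were down-regulated (median -0.10), or 1 and 2 to 4 with 1 array left out, with Ccne2 (-0.76 ± 0.06) and Cdc25a (-0.38 ± 0.05) beside Ccnd1. Of 16 measured BCL2 family genes, 4 were up-regulated and 2 were down-regulated (median 0.02), or 0 to 2 and 0 with 1 array left out, with the BH3-only gene Bmf highest (1.14 ± 0.18), followed by Bnip3 and Bcl2l11 (both 0.39). The shares over all genes were 13.4% up-regulated and 12.3% down-regulated, as above.

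Of 25 proliferation markers, 0 were up-regulated and 10 were down-regulated by limma, where 13.4% and 12.3% of all genes tested were. All 25 were below 0 (median -0.25, against 0.01 over all genes tested). None of them was above 0 at an unadjusted p under 0.05 in limma, with 0 also by the methods' t-test, and the number down-regulated was 4 with no filter on dim probes and 17 with a second coefficient for the dye. It was 2 to 4 with 1 array left out, when Rrm2 and Bub1 passed under every omission. The 3 largest decreases were those of Rrm2 (-0.85 ± 0.08), Bub1 (-0.46 ± 0.06) and Mcm4 (-0.45 ± 0.08), genes of DNA synthesis and mitosis, and Lmnb1, whose loss is a marker of senescence, was among the 10 (-0.34 ± 0.06, adjusted p = 0.0202) and did not pass with any 1 array left out. Secreted proteins associated with senescence went both ways, with 7 of 28 measured up-regulated and 8 down-regulated (median 0.00), or 5 to 6 and 5 to 7 with 1 array left out. The shares over all genes were 13.4% and 12.3%, as above. The insulin-like growth factor binding protein genes Igfbp3 (1.45 ± 0.06) and Igfbp5 (1.35 ± 0.08, n = 3 arrays) and the growth factor gene Hgf (0.96 ± 0.07) were highest. Serpinb2 and Areg were not well above background on any array in STMN1-/- MEFs and were at least 2.67-fold and 2.19-fold lower there, taken against the lowest signal well above background on each array (adjusted p = 0.0066 and 0.00527).

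**Figure D4:**
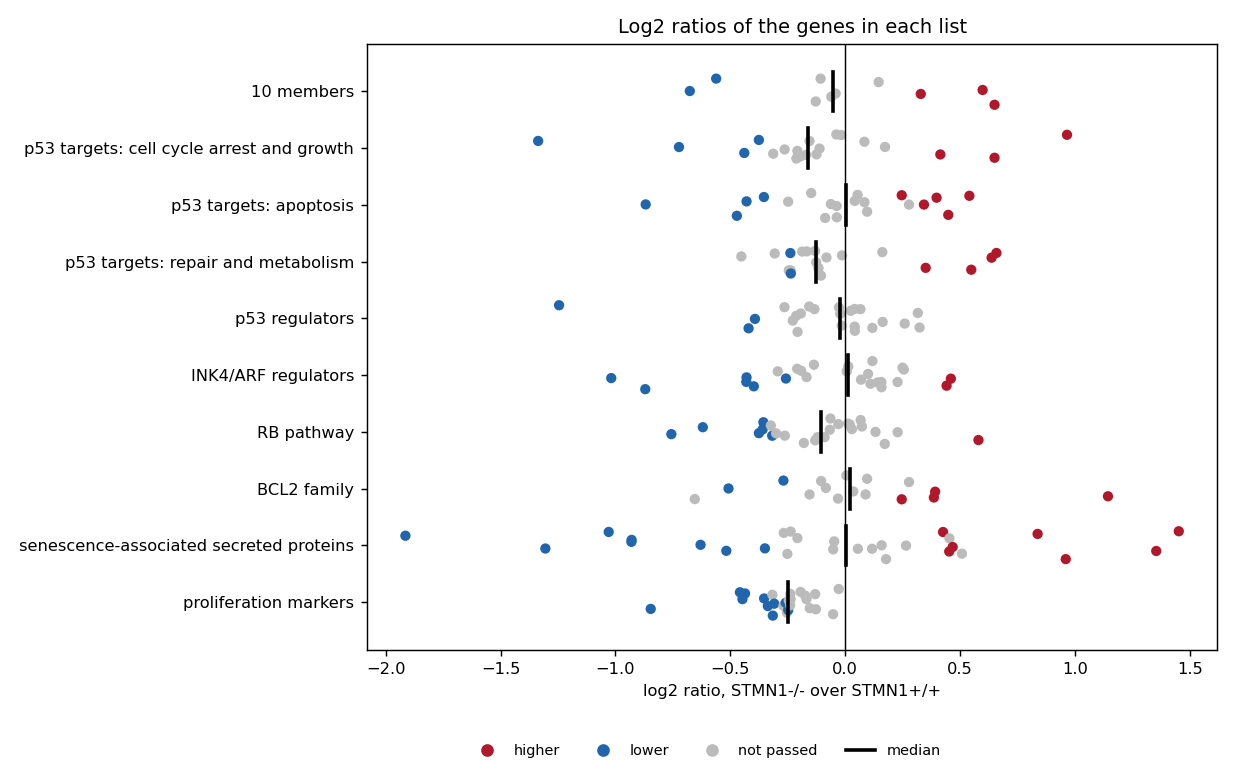
Log2 ratio of STMN1-/- over STMN1+/+ (horizontal axis) of each measured gene of the 10 members and of 9 lists, with a bar at the list's median and vertical scatter added only to separate points. All 25 proliferation markers lie left of 0, while the p53 targets and the secreted proteins spread to both sides.

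Markers of cell types differed between the genotypes as well, where 13.4% of all genes tested were up-regulated and 12.3% were down-regulated. Of 10 fibroblast markers 9 were up-regulated and 1, Vim, was down-regulated, and their summed signal was 3408084 to 4417970 in STMN1-/- MEFs, against 1889415 to 2263676 in STMN1+/+ MEFs. All 3 measured of 4 epithelial markers were down-regulated (summed signal 40228 to 46717 in STMN1-/- MEFs, against 49819 to 56652 in STMN1+/+ MEFs), and Cdh1 did not rise well above background in STMN1-/- MEFs on any array. With any 1 array left out, Cdh1 was the only epithelial marker that passed, all 9 up-regulated fibroblast markers passed, and Vim did not. Of the measured macrophage, endothelial, neural and glial, and muscle markers, 1 of 4, 0 of 2, 1 of 4 and 1 of 4 were up-regulated and 1, 1, 3 and 0 were down-regulated. Of these, the endothelial marker Kdr and the neural and glial markers Map2, Nes and Sox10, all down-regulated, passed under every omission of an array. For muscle markers the summed signal was 1466666 to 1943264 in STMN1-/- MEFs, against 1107098 to 1393880 in STMN1+/+ MEFs. It was 39592 to 44178 against 47497 to 51809 for neural and glial markers, and 1148 to 1370 against 1673 to 2015 for endothelial markers. For macrophage markers it was 5383 to 6222 against 5413 to 6331. Each sum is set mostly by its brightest probes. The part of these differences in the members' values was not tested, and in bulk RNA fewer cells of a type and less RNA per cell cannot be told apart.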

How the data were processed

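RNA of STMN1-/- and STMN1+/+ MEFs was hybridised on 4 Agilent 2-color arrays. The deposited intensity values are processed signals that the authors made with Agilent Feature Extraction 9.5.3.1, per the file headers, with background subtraction and dye normalization. The log10 ratios in the same deposited files are Cy5 over Cy3. The log2 values in the authors' deposited list of 7090 probes are STMN1-/- over STMN1+/+ per array, are normalised as the signals are, and include 8 of the member probes. A shorter list of 5991 probes, all of them in the longer one, was not used. The authors' comparison columns, where present, were not used.

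Outlier spots were left out, spots of a probe were averaged, and 27759 probes that rose well above background in 1 or both channels of any array were kept, of which 35 had no usable spot. Log2 ratios were turned by the dyes in the labels, with no further normalization, and tested for a difference from 0 by limma 3.58.1 under R 4.3.3 (Benjamini-Hochberg over 27724 probes, threshold 0.05). The number of arrays limits the precision. Gene symbols came from RefSeq (GRCm38.p6), by accession, symbol or synonym, with 3745 tested probes unnamed. A gene is represented by its brightest tested probe, and 6268 genes had several. Named are all 10 members, their listed relatives, and up to 3 genes each way per list that passed with 1 sign over all their arrays. Bbc3 and Mtap are named outside this rule. The members and lists were chosen with earlier results of these data known. All arrays share 1 slide and 1 scan day, so no such batch could be tested. The tests were checked on simulated data with independent errors between arrays and no dye effect, so that the check does not cover the split by dye orientation. The packages data.table (1.17.8) and jsonlite (2.0.0) read the files. Python 3.11.15 with numpy 2.4.6, pandas 2.3.3 and matplotlib 3.10.9 drew the figures. The alternatives were normexp (offset 50) with loess, the log10 ratios, median centring, no filter and a stricter filter on dim probes, outlier spots kept, the dye as a second coefficient, each dye orientation alone, the methods' t-test, alone or after a limit of 50% on the coefficient of variation, either pairing of dye-swapped arrays, each array left out, the median over a gene's probes, and the authors' log2 values.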

Additional observations from a re-analysis of the deposited data

Results flagged for a closer look

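Of 112 results measured on all 4 arrays (member probes and other named genes), 3 had 1 array whose gap to the nearest other array exceeded Dixon's critical share of the whole range, and chance marks about 1 in 20. At the Cdkn1b probe A_51_P146126 the log2 ratio was -0.15 on array 1, against 0.00, 0.00 and -0.02 on the other arrays (gap 0.861 of the range). Ddb2 had a log2 ratio of 0.34 on array 4, against 0.62, 0.61 and 0.62 on arrays 1 to 3 (gap 0.938 of the range). Bub1 had -0.35 on array 3, against -0.50, -0.49 and -0.48 on the other arrays (gap 0.873 of the range).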

How the results depend on the processing

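The probes up-regulated and down-regulated numbered 3094 and 3082, against 990 and 1143 with normexp and loess, 1967 and 1871 with no filter on dim probes, 5357 and 5354 with a second coefficient for the dye, 1975 and 1882 under the methods' t-test, and 2024 and 1952 under that test with a coefficient of variation under 50%. Leaving out 1 array gave 1450 to 1647 and 1338 to 1529. The members up-regulated numbered 2 or 3 under every alternative but the omission of an array (1 to 2). The members down-regulated numbered 2, but 0 with no filter on dim probes, 0 under the methods' t-test with and without the limit on the coefficient of variation, 1 with arrays 1 and 3 and arrays 2 and 4 averaged, and 0 to 1 with an array left out, where each gene is taken by its brightest probe. Of 290 comparisons of a member probe with an alternative, 22 kept the sign but lost the call, and 4 gained a call. Another 10 changed sign, at 6 probes that were not called. With STMN1-/- RNA in Cy3 alone these were Cdkn1a (0.098), Bax (0.145), Trp53inp1 A_52_P503387 (-0.043) and Sesn1 A_51_P266644 (0.140), and in Cy5 alone Sesn1 A_52_P53596 (-0.134). The others were Cdkn1b A_51_P146126 with the median over its probes (0.050), Sesn1 A_52_P53596 with normexp and loess (-0.051) and with 1 array left out (-0.050 to 0.070), and Sesn1 A_51_P266644 with 1 array left out (-0.203 to 0.030). Of 1918 such comparisons of another named gene, 10 changed sign, none of them called, 291 kept the sign but lost the call, and 7 gained a call. The changes were 6 with 1 dye orientation alone (Cdkn2c -0.017 in Cy5; Cdkn2d 0.052, Ccng2 -0.154, Cdk4 0.142, Trp73 0.021 and Bmi1 -0.010 in Cy3), Cdkn2c with normexp and loess (-0.027), and with 1 array left out Cdk4 (-0.103 to 0.038) and Trp73 (-0.053 to 0.018). The causes were not tested. Every log2 ratio sets the genotypes against each other within an array, so that each fit is paired by array, and no further replicate block could be fitted because the arrays form 1 group.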
